A study of Mus musculus with 2 samples.

Results

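NRF1 binding was examined at promoters that 2 or more protein-coding genes share in mouse skeletal muscle. A peak was taken when its summit, the base with the most reads, lay between 1000 bp before and 100 bp after an annotated start of at least 2 different protein-coding genes. Of 3226 peaks, 307 met this rule, and they covered 602 different genes. Of the 307, 288 had a fold enrichment of at least 5. The deposited list is longer than the number of binding sites the study states, which it gives with limits on false discovery rate and m-fold, and it was used here as deposited. A further 2245 peaks had their summit in the promoter of 1 protein-coding gene and served for comparison.

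The peaks came from chromatin immunoprecipitation followed by sequencing (ChIP-seq) on wild-type mouse muscle, in a study that worked with C57BL/6J males. The labels give no age, and a supplement of the study puts the wild-type mice of its NRF1 analysis at 9 weeks. Both libraries of the series carry the NRF1 antibody in their labels, while the reporting summary of the study lists the second as the input for NRF1. The 1 deposited peak list bears the title of the first library, so no peak has a replicate error, and read depth is unknown. All tests below compare peaks of this list with each other, and neither animals nor conditions. The list holds no measure of muscle markers, so the labelled tissue could not be checked.

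NRF1, nuclear respiratory factor 1, is a DNA-binding protein that homodimerises on a GC-rich palindrome and activates nuclear genes for mitochondrial proteins and many genes of basic cell upkeep. In mammals, many neighbouring genes are transcribed away from each other from a common stretch of DNA, a divergent or bidirectional promoter. Such promoters are usually rich in CpG dinucleotides, poor in TATA boxes, and serve genes used by most cells.

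The DNA between the starts of 2 divergent genes is given for the 7 members with the highest fold enrichment among those with starts at most 300 bp apart and the motif between them. They were picked for a motif between the starts, to show how a copy lies between back-to-back genes, and are not a sample of the members. Sdha/Ccdc127 and Mrpl32/Psma2 are added for their genes, chosen after their values were seen. The last line is the member with the highest fold enrichment and no motif. Each run reads along the plus strand of mm10, from the base after the start of the gene named first, which is on the minus strand, to the base before the start of the other. Capitals mark the 10-base NRF1 motif, the arm GCGCA joined to its reverse complement, with at most 1 mismatch.
Cntrob/Trappc1, chr11:69323874-69323985: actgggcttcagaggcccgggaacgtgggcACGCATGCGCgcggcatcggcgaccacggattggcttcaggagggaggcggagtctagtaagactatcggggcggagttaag
Arl16/Hgs, chr11:120467601-120467634: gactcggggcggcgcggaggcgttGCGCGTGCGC
Usp37/Cnot9, chr1:74505822-74506059: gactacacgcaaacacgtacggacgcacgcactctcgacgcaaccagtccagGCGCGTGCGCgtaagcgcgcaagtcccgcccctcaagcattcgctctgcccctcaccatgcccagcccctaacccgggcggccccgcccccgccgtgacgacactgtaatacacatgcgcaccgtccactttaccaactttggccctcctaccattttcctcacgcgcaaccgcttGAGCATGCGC
Palb2/Dctn5, chr7:122132947-122133040: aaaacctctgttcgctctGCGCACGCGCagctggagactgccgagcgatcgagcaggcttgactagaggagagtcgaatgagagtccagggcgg
Plekhj1/Sf3a2, chr10:80798627-80798734: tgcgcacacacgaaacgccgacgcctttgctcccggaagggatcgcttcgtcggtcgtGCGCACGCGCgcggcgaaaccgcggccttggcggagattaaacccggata
Eif3k/Map4k1, chr7:28981889-28982049: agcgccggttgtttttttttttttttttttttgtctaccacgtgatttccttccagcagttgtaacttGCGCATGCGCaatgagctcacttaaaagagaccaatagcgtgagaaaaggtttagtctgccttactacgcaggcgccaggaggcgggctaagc
Retreg3/Tubg1, chr11:101119842-101120116: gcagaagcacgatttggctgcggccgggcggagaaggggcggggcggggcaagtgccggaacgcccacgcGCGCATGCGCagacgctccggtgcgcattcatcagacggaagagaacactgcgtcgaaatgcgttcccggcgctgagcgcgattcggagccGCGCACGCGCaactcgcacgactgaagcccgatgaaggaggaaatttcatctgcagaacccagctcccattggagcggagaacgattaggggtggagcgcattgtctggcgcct
Sdha/Ccdc127, chr13:74350241-74350316: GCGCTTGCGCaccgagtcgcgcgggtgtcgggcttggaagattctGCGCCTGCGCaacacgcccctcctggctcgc
Mrpl32/Psma2, chr13:14613038-14613241: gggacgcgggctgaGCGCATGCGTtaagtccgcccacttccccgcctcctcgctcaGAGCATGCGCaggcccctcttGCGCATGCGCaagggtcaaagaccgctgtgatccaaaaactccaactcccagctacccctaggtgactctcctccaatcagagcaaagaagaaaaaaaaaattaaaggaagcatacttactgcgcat
6430550D23Rik/Ergic3, chr2:156007978-156008027: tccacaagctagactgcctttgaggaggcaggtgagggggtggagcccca

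In Cntrob/Trappc1, with a fold enrichment of 33.6, the motif centre lay 11.5 bp from the summit. Cntrob encodes a centriole protein and Trappc1 a subunit of a vesicle tethering complex. Arl16/Hgs, with a fold enrichment of 29.7, had its starts only 35 bp apart, and the motif ended at the base before the start of Hgs, which sorts ubiquitinated cargo at endosomes. Eif3k/Map4k1, with a fold enrichment of 25.9, held the exact palindrome almost midway, with the summit 81 bp before each start. Retreg3/Tubg1 held an exact copy and a copy with 1 mismatch, and its fold enrichment was 25.5. Mrpl32/Psma2, with starts 205 bp apart, held 3 copies, 1 of them exact, and a fold enrichment of 22.6. Its genes encode a mitochondrial ribosomal protein and an alpha subunit of the proteasome core. Sdha/Ccdc127, where Sdha encodes the flavoprotein of respiratory complex II, had 3 copies within 100 bp of the summit, 2 of them between starts 77 bp apart, and a fold enrichment of 15.0. At 6430550D23Rik/Ergic3 the fold enrichment was 36.5 with no motif within 100 bp, and the summit lay 15 bp past the start of Ergic3, a protein of the early secretory pathway.

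Almost all members were divergent promoters. Of the 307 members, 291 (94.8%) had 1 gene on each strand pointing away from each other, 10 had 2 genes on the same strand, 4 had opposite genes whose 5′ ends overlapped, and 2 lay in promoters of 3 genes. Members were placed by the starts nearest to the summit. Gene pairs were placed by their closest starts instead, and by that rule 90.7% of all 1149 pairs with overlapping promoter windows were divergent, and 284 of the 304 pairs with a summit in the common stretch (93.4%). The members stood for 300 different gene combinations, since 7 pairs carried 2 member peaks each. The 2 peaks of such a pair share their target and are not independent. Members lay on 20 chromosomes, with 32 on chromosome 11, 27 on chromosome 2 and 3 on chromosome X. An annotated non-coding RNA gene also had a start nearby at 4 members.

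The starts of divergent genes in the members were close together. The distance ranged from 1 bp at Tcta/Rhoa to 1261 bp at Wdr78/Mier1, with quartiles of 86, 182 and 317.5 bp, where the rule itself allows at most 2000 bp. Close starts were also common among all 1042 divergent pairs, with or without a peak, placed by their closest starts. Of these pairs, 316 had starts up to 100 bp apart, another 243 up to 200 bp and another 135 up to 300 bp. The closeness is thus not particular to the members. At Tcta/Rhoa, where Rhoa encodes a small GTPase of the actin cytoskeleton, the fold enrichment was 24.8 and the summit lay 53 bp inside Tcta. The next shortest distances were 4 bp at 2810004N23Rik/Gnpat, with a fold enrichment of 4.23, and 5 bp at Kars/Terf2ip, with 19.3. Kars encodes lysyl-tRNA synthetase and Terf2ip a telomere protein. Next to Wdr78/Mier1 (fold enrichment 10.9), the longest distances were 1147 bp at Caskin2/Tsen54 (11.0) and 1038 bp at Btf3l4/Txndc12 (3.80). Median fold enrichment was 13.0 in the 83 divergent members with starts up to 100 bp apart, 14.4 in the next 75 up to 200 bp, 12.2 in the next 49 up to 300 bp, 9.84 in the next 40 up to 500 bp and 11.9 in the next 40 up to 1000 bp. The quartiles of these classes overlapped.

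The summit lay between the starts in 200 of 291 divergent members (68.7%). It lay past the plus-strand start in 46 and past the minus-strand start in 45, by a median of 21 bp in these 91 members. Of the pair of starts, the nearer was 33 bp and the farther 155 bp from the summit in the median. Of the 84 divergent members with starts more than 300 bp apart, 50 had the summit within 100 bp of 1 of the starts and 17 had it in the middle of the interval, at least 1 part in 3 away from each end. Among the 208 with starts more than 100 bp apart, 121 summits lay nearer to the minus-strand start, 86 nearer to the plus-strand start and 1 midway. Plus and minus are labels of the assembly, the imbalance was not tested, and no preference is read from it.

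**Figure D1:**
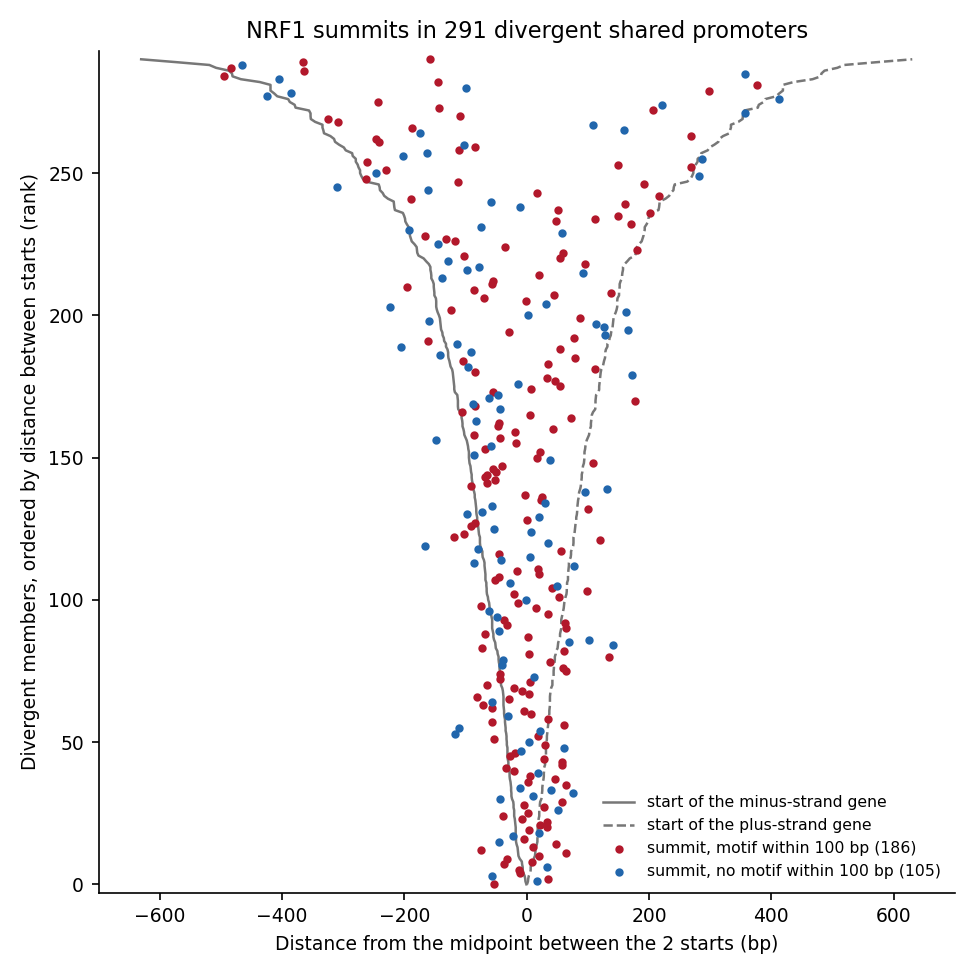
Position of the NRF1 summit in the 291 divergent members, 1 row each, ordered by the distance between the starts. The x axis gives bp from the midpoint between the starts, the lines mark the starts, and red or blue points mark summits with (186) or without (105) the motif within 100 bp. Most points (200) fall between the lines, and in the widest promoters many lie beside 1 line.

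Fold enrichment of the members, the ratio of ChIP signal to background that the authors' peak caller gave, ranged from 3.01 to 49.9 with quartiles of 8.53, 12.2 and 17.1. Their −log10 q ranged from 1.50 to 158, and 1 member, Oxsm/Ngly1, had a q above 0.01. Peak width had a median of 322 bp. The highest fold enrichment, 49.9, was at Gm16286/Txnl4a on chromosome 18, where both genes are annotated from the same base on the plus strand. Txnl4a encodes a component of the spliceosome, and the peak held 2 motif copies, 1 of them the exact palindrome. It was followed by Safb2/Safb with 39.0, a pair of paralogues for scaffold attachment factors with starts 397 bp apart. Next came 6430550D23Rik/Ergic3 with 36.5, Cntrob/Trappc1 with 33.6 and AU022252/P3h1 with 31.9, where P3h1 modifies collagen prolines. Mtrr/Fastkd3 followed with 31.3. Mtrr encodes methionine synthase reductase and Fastkd3 a mitochondrial RNA-binding protein. Arl16/Hgs had 29.7, Usp37/Cnot9, a deubiquitinase beside a deadenylase subunit, 29.3, and Nfya/Oard1 28.2. Nfya encodes a subunit of the CCAAT-binding factor NF-Y. The tenth was Znhit1/Plod3 with 27.9, which had no motif within 100 bp. The motif was thus present in 8 of these 10.

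The lowest values were 3.01 at Oxsm/Ngly1, 3.70 at the second peak of Cep170/Sdccag8, and 3.80 at Ppcs/Zmynd12, Btf3l4/Txndc12 and Brca1/Nbr1. Oxsm encodes an enzyme of mitochondrial fatty acid synthesis, and Brca1 and Nbr1 serve DNA repair and selective autophagy. None of these 5 peaks held the motif within 100 bp of the summit.

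The motif accompanied higher fold enrichment within the members. It was found within 100 bp of the summit in 198 of 307 members (64.5%, 95% Wilson interval 59.0 to 69.6). The median fold enrichment was 14.2 with the motif (quartiles 10.5 and 18.4) and 8.78 without it (quartiles 6.53 and 14.4, n = 109). Above the median of all members were 117 of 198 peaks with the motif (59.1%) and 35 of 109 without (32.1%), an odds ratio of 3.05 (Fisher's exact test, two-sided, p = 8.81e-06). The median was 12.9 in the 161 members with 1 copy, 18.1 in the 30 with 2 copies and 19.9 in the 7 with 3 or more. B3galt6/Sdf4 held 6 copies, the most of any member, with a fold enrichment of 22.2. The ranges of these classes overlapped, from 3.01 to 36.5 without a copy against 15.0 to 22.6 with 3 or more.

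**Figure D2:**
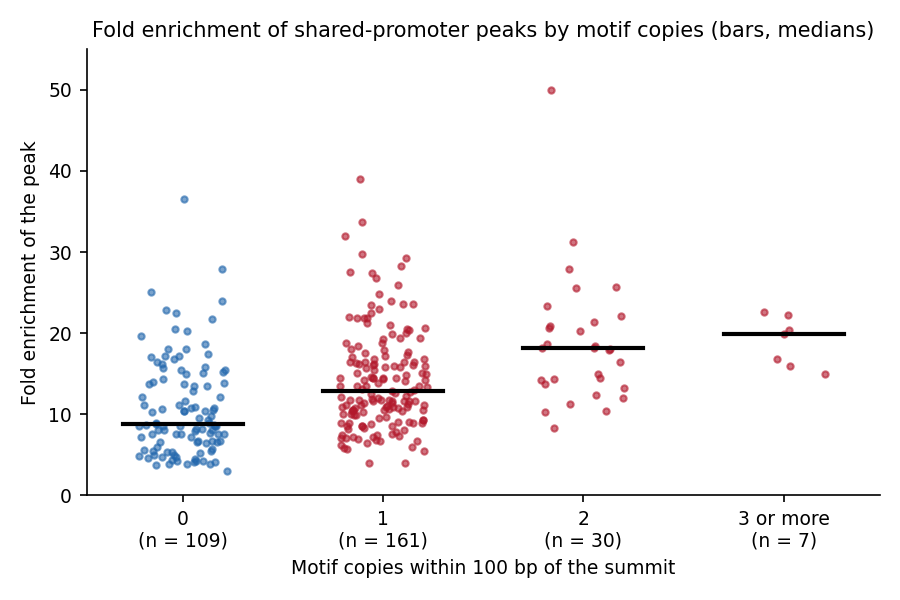
Fold enrichment of the 307 members by the number of motif copies within 100 bp of the summit. Each point is 1 peak and each bar the median of its class, 8.78, 12.9, 18.1 and 19.9 from left to right.

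The shares of the motif's forms in members are given beside those in single-gene promoter peaks, and their differences were not tested. The form GCGCAGGCGC, or GCGCCTGCGC on the other strand, was present in 80 members (26.1%, against 23.2% of single-gene peaks), with a median fold enrichment of 14.2. GCGCACGCGC followed in 45 members (14.7% against 16.8%, median 15.9), and the exact palindrome GCGCATGCGC in 34 (11.1% against 11.0%, median 14.9). ACGCATGCGC was found in 21 (6.84% against 7.04%), GCGCAAGCGC in 20 (6.5% against 5.0%) and GAGCATGCGC in 10 (3.26% against 4.59%). The median distance of motif centre and summit was 15.5 bp, and it was at most 25 bp in 137 of 198 members (69.2%), against 77.1% of single-gene promoter peaks. In divergent members with the motif, its copy nearest to the summit lay between the starts in 119 of 186 (64.0%) and past a start in the other 67.

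Members without the full motif mostly held 1 arm of it. The 5-base arm GCGCA, on either strand and also counted inside full motifs, was found within 100 bp of the summit in 97 of the 109 members without the motif (89.0%, interval 81.7 to 93.6). In single-gene promoter peaks without the motif the share was 89.0% as well (678 of 762). Of windows of the same length around all 25999 annotated starts, 34.0% held the arm, 6.78% the motif with at most 1 mismatch and 1.02% the exact palindrome. These windows were not matched to the peaks in GC content or CpG dinucleotides, and the arm itself holds a CpG. With 2 mismatches allowed, 33 members still had no copy. The 12 members without the arm were led by Alyref/Anapc11 (18.1), whose genes serve mRNA export and the anaphase-promoting complex, and Atp5j/Gabpa (11.7). Atp5j encodes a coupling subunit of ATP synthase and Gabpa the DNA-binding subunit of GA-binding protein, another activator of mitochondrial genes. The summit at Atp5j/Gabpa lay 90 bp past the start of Gabpa.

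None of the 3 motif features differed between shared and single-gene promoter peaks beyond the threshold of 0.05. The motif was found in 64.5% of the members and in 66.1% of the 2245 single-gene promoter peaks (odds ratio 0.93, adjusted p = 0.81 over 4 tests by Fisher's exact test). The exact palindrome was found in 11.1% and 11.0% (odds ratio 1.01, adjusted p = 1). At least 2 copies were found in 12.1% (interval 8.87 to 16.2) and 10.4% (9.23 to 11.8), an odds ratio of 1.18 with adjusted p = 0.75 by Fisher's exact test. These intervals leave room for differences of several percentage points.

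The difference in fold enrichment between the members and single-gene promoter peaks did not pass correction. The median was 12.2 against 11.1 in single-gene promoter peaks, a difference of 0.13 on the log2 scale. Above the median of all 2552 promoter peaks were 173 of 307 members (56.4%, interval 50.8 to 61.8) and 1100 of 2245 single-gene peaks (49.0%, 46.9 to 51.1), with an odds ratio of 1.34, p = 0.0175 and adjusted p = 0.0702 by Fisher's exact test. Median width was 322 bp in the members and 294 bp in single-gene peaks. The median CpG ratio, observed over expected CpG dinucleotides within 100 bp of the summit, was 0.966 and 0.921, and the median GC content 65.2% and 67.2%. Among peaks with a CpG ratio of at least 0.75 the odds ratio was 1.36 (adjusted p = 0.0831 by Fisher's exact test). The lower quartile of the CpG ratio was above this cut in both groups, at 0.820 in the members and 0.804 in single-gene peaks. Most peaks of both groups were therefore kept, and the cut cannot separate CpG content from the difference. The part of CpG ratio, width and GC content in the difference was not tested.

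Other promoter elements were searched by their letters, on either strand, in the same windows around the summits. The GC box GGGCGG was found in 61.2% of the members and 66.3% of single-gene promoter peaks (adjusted p = 0.251 over 6 tests, Fisher's exact test). The CRE core TGACG was found in 30.9% and 27.4%, the CCAAT box ATTGG in 27.0% and 23.1%, and the ETS core CCGGAAG in 17.9% and 15.3%. The YY1 core AAGATGG was found in 8.14% and 5.08%, with an odds ratio of 1.66, p = 0.0317 and adjusted p = 0.19 by Fisher's exact test. The TATA box TATAAA was found in 6 members (1.95%) and in 1.56% of single-gene peaks. None of the 6 differences passed the threshold. Around all annotated starts, not matched to the peaks in GC content, these shares were 42.9% for the GC box, 19.5% for the CRE core, 27.1% for the CCAAT box, 9.50% for the ETS core, 4.97% for the YY1 core and 7.28% for the TATA box.

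**Figure D3:**
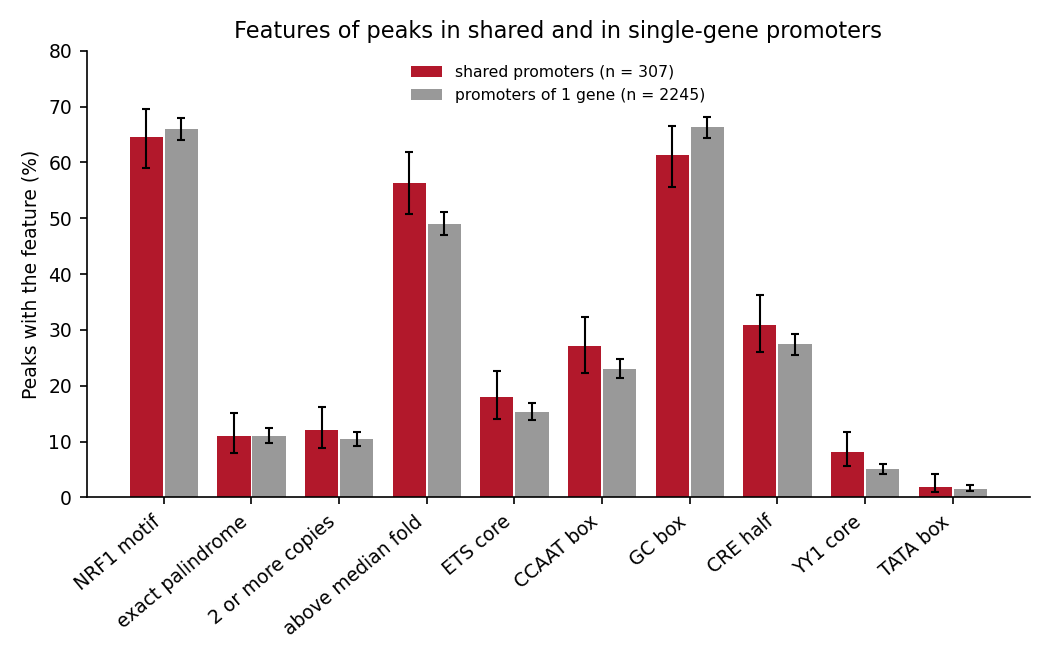
Share of peaks (%) with each feature in the 307 members (red) and the 2245 single-gene promoter peaks (grey), with 95% Wilson intervals. The intervals of the pairs of bars overlap for the motif (64.5% and 66.1%) and the other sequence features; for fold enrichment above the common median they nearly part (56.4% and 49.0%).

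A summit in the promoter was found for 2804 of 21000 protein-coding genes (13.4%). Among the 2251 genes whose promoter overlaps that of another protein-coding gene, 694 carried a peak (30.8%, interval 29.0 to 32.8), against 2110 of 18749 other genes (11.3%). Because 1 peak serves both genes of a pair, the share was also taken with 1 gene per pair, where it was 31.7%. A gene can also be counted through a peak at the start of its neighbour. With the summit required within 100 bp of a start of the gene itself, the shares were 18.6% and 7.92%. This rule still counts 1 peak for both genes where their starts are close. In 91 divergent members the summit lay within 100 bp of both starts. The 18.6% is therefore not free of peaks shared with a neighbour. Among genes with a CpG-rich start the shares were 36.8% (507 of 1377) and 24.6% (1745 of 7096), so the gap was narrower there. CpG-rich starts were themselves more frequent among genes with a shared promoter, at 61.2% against 37.8%. These shares are descriptions and were not tested.

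The motif went with occupancy at both kinds of promoter. It lay within 100 bp of a start in 342 of 2251 genes with a shared promoter (15.2%) and in 1321 of 18749 others (7.05%). Of genes with the motif there, 89.2% with a shared promoter (305 of 342) and 79.0% without (1044 of 1321) carried a peak. Of genes without it, the shares were 20.4% and 6.12%. Among genes with a CpG-rich start the shares were closer, 90.5% and 85.8% with the motif and 23.5% and 14.6% without it. All these shares include peaks at the start of a neighbour.

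Taken by pairs, 304 of 1149 gene pairs with a common promoter stretch had a summit in it (26.5%). The share was 27.3% for 1042 divergent pairs, 21.8% for 55 same-strand pairs and 15.4% (interval 8.01 to 27.5) for 52 pairs with overlapping 5′ ends. It was 27.8% for divergent pairs with starts up to 100 bp apart and 38.5% for those more than 300 and up to 500 bp apart, with overlapping intervals. Beyond 1000 bp it was 1.57% (2 of 127), where the common stretch becomes short by construction. When a pair is placed here by its closest starts, the motif between them or within 100 bp of either marked 205 of 915 divergent pairs with starts up to 1000 bp apart. Of these 205 pairs, 185 carried a peak (90.2%, interval 85.4 to 93.6), against 97 of 710 pairs without the motif (13.7%, 11.3 to 16.4). The share with the motif was between 85.2% and 96.0% in each of 5 distance classes, and that without it between 11.2% and 17.3%.

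Among the 20 motif-bearing divergent pairs without a summit were Gfm2/Nsa2, with starts 11 bp apart, Exosc7/Zdhhc3 (37 bp) and Hras/Lrrc56 (126 bp). The 20 pairs include 2, Chtf8/Utp4 and Derpc/Utp4, that have the same promoter. The median CpG ratio was 0.878 over these 20 pairs, against 0.909 over the 185 with a peak. In 5 of the 20 pairs, 1 gene had a promoter peak elsewhere, outside the common stretch. The exact palindrome was present in 2 of the 20, both among these 5, and in 32 of the 185.

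**Figure D4:**
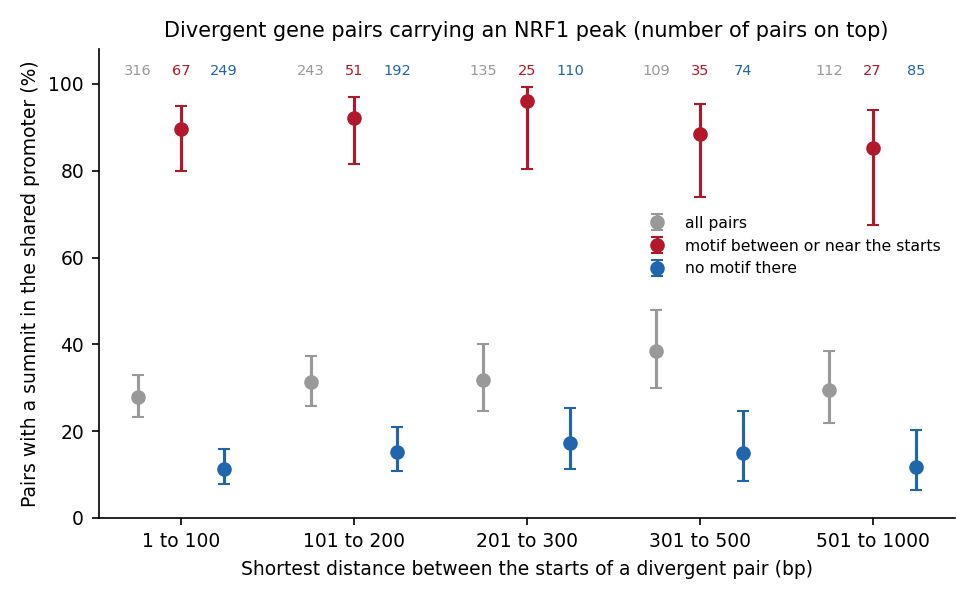
Share of divergent gene pairs (%) with an NRF1 summit in the common promoter, by the shortest distance between their starts in bp. Grey points are all pairs, red points pairs with the motif, blue points pairs without it, bars are 95% Wilson intervals and the numbers on top count pairs. Red points lie between 85.2% and 96.0%, blue points between 11.2% and 17.3%.

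Gene groups below are lists by symbol and do not hold every gene of a function. Of all 2804 genes with a promoter peak, 602 (21.5%) were in the members, and the lists are read beside this share and the 13.4% of all genes with a promoter peak. A list's share in members also depends on how many of its genes share a promoter, which 2251 of all 21000 genes did. Of respiratory chain genes 29 of 87 did, 11 of them with a peak. It was 31 of 78 for the mitochondrial ribosome (11 with a peak) and 29 of 94 for DNA replication and repair (11). For the cytosolic ribosome it was 14 of 85 (3 with a peak). Whether any list prefers shared promoters was not tested. Of 87 genes of the respiratory chain, 36 (41.4%) had a promoter peak, and 10 of these (27.8%) were in the members. All 10 promoters were divergent and 7 held the motif. Ndufa8/Morn5 had a fold enrichment of 18.1 with 2 motif copies, where Ndufa8 encodes a subunit of complex I. Sdhd/Timm8b had 16.0, and joins the membrane anchor of complex II to a chaperone of mitochondrial protein import, with starts 52 bp apart. Sdha/Ccdc127 had 15.0 and Vmac/Ndufa11 15.0. The ATP synthase genes were at Atp5j/Gabpa (11.7), Atp5h/Kctd2 (10.7) and Atp5c1/Kin (8.78), and the complex III genes at Uqcrb/Gm10767 (8.62) and Uqcr10/Zmat5 (6.54). Ndufa5/Asb15, with 9.29, placed a complex I gene beside a muscle ubiquitin ligase adaptor.

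Of 78 genes of the mitochondrial ribosome, 26 (33.3%) had a promoter peak and 10 of these (38.5%) were in members. Mrpl49/Fau had 25.0 without the motif, and Fau encodes a ubiquitin-like fusion with a protein of the cytosolic ribosome. Mrps18b/Ppp1r10 had 23.5, and Mrpl32/Psma2 had 22.6. The lowest was Mrpl41/Pnpla7 with 4.25. Of 25 import genes named Timm or Tomm, 6 (24%) had a promoter peak. Of these, 2 (33.3%) were in members, Sdhd/Timm8b and Timm21/Fbxo15 (14.5). Of 85 cytosolic ribosome genes named Rpl or Rps, 22 had a promoter peak and 1 (4.55%), Rpl7a opposite Med22 (15.7), was in a member.

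Of 84 genes with a promoter peak in 7 lists of protein degradation (proteasome, Ube2, Usp, F-box, Trim, Atg and Rnf genes), 16 were in members (19.0%, interval 12.1 to 28.7), near the share of all genes with a peak. Of 51 proteasome genes, 12 had a promoter peak and 3 were in members, Mrpl32/Psma2 (22.6), Ftsj3/Psmc5 (14.3) and Psmb9/Tap1 (5.42). Psmb9 encodes an immunoproteasome subunit and Tap1 a peptide transporter of antigen presentation, and no motif lay near that summit. The deubiquitinases Usp37 and Usp5 were in Usp37/Cnot9 (29.3) and Usp5/Cdca3 (14.2), and Smim14/Ube2k (13.2) was the only member with a ubiquitin-conjugating enzyme of the Ube2 family. F-box genes, which encode substrate receptors of ubiquitin ligases, were in C8g/Fbxw5 (22.2), Timm21/Fbxo15 (14.5) and Fbxo9/Cilk1 (11.7). Trim genes were in Shld3/Trappc13/Trim23 (18.7) and Trim46/Krtcap2 (5.29). The autophagy genes Atg3 and Atg4b were in Slc35a5/Atg3 (11.6) and Thap4/Atg4b (7.51). RING finger genes were in 3 members, Hook3/Rnf170 (13.7), Ccdc189/Rnf40 (8.03) and Slc25a11/Rnf167 (6.53), all without the motif. Of a list of 23 catabolic genes, which leaves out others that the study names, such as Nbr1, 15 had a promoter peak and 1, Fbxo9, was in a member. The list was drawn up with results of these data known and is not independent evidence.

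Genes that maintain and express DNA were found at high and low fold enrichment. Of 94 genes listed for DNA replication and repair, 31 had a promoter peak and 10 of these (32.3%) were in members. Polh/Xpo5 had 19.9 with 3 motif copies, and Polh encodes a translesion DNA polymerase. Rad51ap1/D6Wsu163e followed with 13.5 and Haus3/Poln with 12.0. Atm/Npat (10.4), Desi1/Xrcc6 (9.77) and Mcm4/Prkdc (7.05) held the genes of a damage kinase, an end-joining protein and a replicative helicase subunit. In Mcm4/Prkdc the partner is a repair kinase as well. RNA polymerase and general transcription factors had 9 of 35 genes with a promoter peak (25.7%) in members, led by Noa1/Polr2b (18.2), Med22/Rpl7a (15.7) and Gtf3c1/D430042O09Rik (14.5). Splicing genes named Sf3, Srsf, Snrp, Prpf or Lsm, a list without Txnl4a, had 6 of 24 (25.0%) in members, with the highest values at Plekhj1/Sf3a2 (26.8), Srsf2/Mfsd11 (19.9) and Lsm7/Sppl2b (18.4). The tRNA synthetase genes had 2 of 13 (15.4%) in members, Kars/Terf2ip (19.3) and Orc3/Rars2 (10.8).

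Genes named Dnaj, Hsp or Cct had 5 of 21 genes with a promoter peak (23.8%) in members, led by Tsacc/Cct3 (20.3), Atpif1/Dnajc8 (15.8) and Lrrc42/Hspb11 (15.1). They were listed by name, and whether each, such as Hspb11, acts as a chaperone was not checked. Centrosome and cilium genes had 6 of 21 (28.6%) in members, among them Mbd4/Ift122 (18.8) and Cep57l1/Sesn1 (15.0). Traffic genes named Rab or Vps had 2 of 22 (9.09%) in members, Vps26b/Ncapd3 (16.5) and Rad9b/Vps29 (5.94). In all, 77 member peaks held a gene of at least 1 of the 19 lists. In 5 of them the genes came from 2 lists, Mrpl32/Psma2, Sdhd/Timm8b, Timm21/Fbxo15, Med22/Rpl7a and Rad9b/Vps29, and in 0 from the same list, which as built leaves out Prkdc. Names with a common stem were shared by the genes of 3 members, Safb2/Safb (39.0), Abhd14a/Abhd14b (16.4) and Abca17/Abca3 (8.50).

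The members that were not divergent pairs were few. Both promoters of 3 genes held 2 motif copies, Rfxank/Borcs8/Gm45929 with a fold enrichment of 27.9 and Shld3/Trappc13/Trim23 with 18.7. Borcs8 and Gm45929 are annotated from the same base, opposite to Rfxank. The starts of Shld3 and Trappc13, both on the minus strand, lay 272 and 265 bp from the summit. Rfxank encodes a regulator of MHC class II genes and Borcs8 a subunit of a lysosome positioning complex. In 6 of the 10 same-strand members the genes are annotated from the same base, so that 1 start serves both names. These included Gm16286/Txnl4a, Asdurf/Asnsd1 (19.6) and the imprinted Snrpn/Snurf (8.90). The median fold enrichment was 10.9 in same-strand members and 13.4 in the 4 with overlapping 5′ ends, among them Serp1/Eif2a (17.3).

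Of the 7 pairs with 2 member peaks, 4 had a higher and a clearly lower summit. At Srsf2/Mfsd11 the values were 19.9 and 4.94, with summits 295 bp apart. At Ccdc47/Ddx42 they were 15.1 and 4.06 (548 bp apart), at Elp5/Ctdnep1 12.8 and 6.46 (476 bp), and at Cep170/Sdccag8 11.3 and 3.70 (466 bp). At Tcf19/Cchcr1 (8.62 and 10.4), Utp18/Mbtd1 (10.5 and 7.23) and Bag4/Lsm1 (6.26 and 5.17) the values were closer.

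At the edge of the promoter window, the members with the farthest start were Slc49a4/Hspbap1 (992 bp before Hspbap1, fold enrichment 8.00) and Btf3l4/Txndc12 (984 bp before Txndc12, 3.80). Just outside were a peak 1041 bp from the farther start of Efcab11 and Tdp1 (15.9) and another 1045 bp from that of Acaa1a and Myd88 (10.3).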

How the data were processed

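Single-end reads of 50 bp from wild-type muscle were mapped by the authors to mm10 with Bowtie 1.1.2, and peaks were called with MACS2 2.2.7.1 against input. The deposited list gives, per peak, a fold enrichment (a ratio of ChIP to background), a −log10 q-value and a summit offset. The methods name a broad setting, whereas the file has the narrow layout with summits, and the region filter they name belongs to a human build. Here, starts were those of RefSeq NM transcripts on GRCm38.p6 (21000 genes, 25999 starts), the assembly of mm10, and all sequences printed come from it. Members, lists and tests were chosen with earlier results of these data known. Members named were the 10 highest and 5 lowest by fold enrichment, the 3 highest of each list, those of 3 genes, those with a common name stem, and those at the extremes of distance and at the window edge. All others were named after their values were seen, and some members are not reported here. Shares were compared by two-sided Fisher's exact tests with Benjamini-Hochberg adjustment over 4 features and over 6 elements (Python 3.11.15, scipy 1.17.1). Intervals are 95% Wilson intervals for counting error only, over peaks, genes or pairs, and those over genes count both genes of a pair although 1 peak can serve both. CpG-rich starts had a CpG ratio of at least 0.75 and at least 55% GC within 200 bp. Functions were tested on simulated data.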

Additional observations from a re-analysis of the deposited data

How the results depend on the processing

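Of 100 values recomputed under the alternatives, 87 stayed on the same side of 1 and of the threshold of 0.05, or were a count of members within 1.5 times the main one, or a share of genes inside its interval. The number of members ranged from 272 to 416 over all windows and thresholds tried. The odds ratio for fold enrichment above the median, shared against single-gene peaks, stayed between 1.33 and 1.44 and passed Fisher's exact test after adjustment in 3 alternatives, at 1.33 with promoters of 2000 bp before and 500 bp after (adjusted p = 0.0365), 1.44 with q of at most 1e-05 (adjusted p = 0.0192) and 1.44 with fold enrichment of at least 5 (adjusted p = 0.0155). The last 2 filter peaks on the value tested or on the q value called with it, and are given no weight as separate support. The motif's odds ratio turned to 1.03 with the wide promoters and to 1.01 with fold enrichment of at least 5. That of the palindrome turned to 0.961 with the wide promoters, 0.968 with promoters of 500 bp, 0.946 with summits within 100 bp of a start and 0.999 in divergent members only. That of the TATA box turned to 0 within 50 bp of the summit. None of these reversed values passed the threshold, and the cause was not tested. The share of genes with a shared promoter that carry a peak moved to 33.1% with any overlap of peak and promoter, 36.8% in CpG-rich genes, and 18.6% when the summit had to lie within 100 bp of a start of the gene itself, against 11.9%, 24.6% and 7.92% of other genes. The difference within the members by motif passed under every alternative run, with odds ratios from 2.18 to 3.02, below the main 3.05. The lowest came from the same filter on fold enrichment. No paired analysis was possible because there is 1 peak list, and for the same reason no replicate could be left out. Read depth is unknown, so a promoter without a peak may hold binding below detection.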

Other observations

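Several members paired mitochondrial, muscle or cell cycle genes that stand in no list above, and they were picked after their values were seen. Tbc1d10b/Mylpf, where Mylpf encodes the regulatory myosin light chain of fast muscle fibres, had a fold enrichment of 18.8 with a motif 95.5 bp from the summit. Smim7/Tmem38a, where Tmem38a encodes a cation channel of the sarcoplasmic reticulum, had 11.7. Actn3/Zdhhc24, with the alpha-actinin of fast fibres, had 4.84 and no motif. Tfb2m/Cnst, where Tfb2m encodes a mitochondrial transcription factor, had 3.98 with 1 motif copy. Shld2/Glud1 had 24.0 and Chchd4/Tmem43 23.4, with genes for glutamate dehydrogenase and a mitochondrial import oxidoreductase.

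Of 10 genes whose names mark them as subunits of the anaphase-promoting complex, 7 had a promoter peak and 4 of these lay in members, Alyref/Anapc11 (18.1), Cep63/Anapc13 (8.78), Ssna1/Anapc2 (8.53) and Abce1/Anapc10 (8.26). The motif was present in 1 of these 4. This group and the next were also picked from the member list itself, so their counts are not compared with other genes. Subunits of the RNA exosome, the cleavage complexes and Integrator had 16 of 36 genes with a promoter peak, 7 of these in members, and 6 of these 7 members held the motif, from 10.5 at Exosc1/Zdhhc16 to 23.4 at Itgb1bp1/Cpsf3.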
